A study of Saccharomyces cerevisiae with 28 samples.

Results

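Transcript levels of diploid cells of 2 strains of Saccharomyces cerevisiae, RM and BY, were compared on 6 of the 28 arrays of the series, the 3 labelled RM diploid and the 3 labelled BY diploid. All probe sets other than the array's controls were taken, and each was described by its mean log2 level in RM diploids minus that in BY diploids. The laboratory strain BY is isogenic to S288C, from which the reference genome comes, while RM is a wild vineyard strain. As far as the labels tell, each diploid was made by a cross within its own strain, and total RNA was taken from cells in log phase in every group. The labels give no medium, mating type or marker genotype. Nor do they say whether the 3 arrays of a group were grown as separate cultures. The p-values therefore measure the spread between arrays alone, and that spread may be technical. BY haploids and RM haploids (3 arrays each) and diploid hybrids of BY and RM (6 arrays) were used to set the diploid levels beside those of other cells, and 6 arrays of mixed BY and RM mRNA entered the estimate of the spread. The other 4 arrays, of segregants from the cross, stayed out of it.

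Budding yeast that carry the mating type information of both a and alpha cells repress the genes of haploid mating, and this state is the usual mark of a diploid made by mating. Several regulators of metabolism are well studied in these strains. Gcn4 activates the genes of amino acid synthesis, Pho4 activates genes for taking up and storing phosphate when phosphate is scarce, and Hap1 is a heme-responsive activator of genes for respiration and sterol synthesis. Strains of the S288C lineage carry a transposon in HAP1 that lowers the activity of the protein. They also carry an allele of AMN1, an inhibitor of the exit from mitosis, under which daughter cells part from their mothers more readily than in wild strains.

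Each deposited value is the level of a probe set, taken as log2 because the values reach no further than 14.67. Medians of the 6 diploid arrays lay between 7.48 and 7.56. Precision is limited by there being 3 arrays per strain. The BY diploid arrays correlated with each other across probe sets at a mean of 0.993 to 0.994, and the RM diploid arrays at 0.974 to 0.985, with RM diploid replicate 1 the lowest. Markers of cell type fitted the label diploid in both strains. Over 11 genes that a/alpha cells repress, the array means were 6.52 to 6.59 in BY diploids and 6.59 to 6.78 in RM diploids, against 8.29 to 8.52 in BY haploids and 8.04 to 8.29 in RM haploids. The 5 alpha-specific genes averaged 7.19 to 7.23 in BY diploids and 7.06 to 7.42 in RM diploids, and the 7 a-specific genes 6.77 to 6.86 and 6.86 to 7.07. In haploids, the alpha-specific genes were high in BY (11.60 to 11.84) and the a-specific genes high in RM (10.10 to 10.17), so the haploid groups differ in mating type as well as in strain. The 24 genes of meiosis and sporulation, markers of cells that have left growth, averaged 6.32 to 6.38 in BY diploids and 6.38 to 6.46 in RM diploids, and 0 of the 24 were called.

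The strains' diploids differed at 1598 of 9274 probe sets (17.2%) by limma with Benjamini-Hochberg adjusted p under 0.05. RM was higher at 686 (7.40%) and lower at 912 (9.83%). Past a 2-fold difference, 186 were higher (2.01%) and 351 lower (3.78%). The balance of direction depended on the kind of probe set. Among 328 probe sets that match several genes, 23 were higher and 119 lower, and among 2442 that the platform annotation gives no gene, 81 were higher and 232 lower, 161 of these by more than 2-fold. Among the 6504 probe sets with a single gene, 582 were higher and 561 lower. The probes were designed on the reference sequence, to which BY is isogenic, so a sequence difference in RM and a lower transcript level cannot be told apart by a probe set. The direction of the balance also turned with the scaling, to 973 higher and 925 lower after quantile normalization and 872 higher and 804 lower after median centring.

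Genes were then described by 1 probe set each, the one with the highest mean level. Of 5656 genes, 1034 were called (18.3%), of which 556 were higher in RM diploids (9.83%) and 478 lower (8.45%). The shares of 9.83% and 8.45% are the background for the counts of each gene list below. By more than 2-fold, 147 were higher (2.60%) and 86 lower (1.52%). The 3 arrays of RM did not overlap the 3 of BY for 2870 genes (50.7%), or 4185 of all probe sets (45.1%). In the text below, "called" means past the adjusted p over all 9274 probe sets, and a value after ± is the standard error of limma's difference. The median difference over all genes was 0.00. In RNA pooled from a culture, fewer cells of a kind and less RNA per cell cannot be told apart.

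The largest rise among genes with a standard name was that of ARG3, which encodes ornithine carbamoyltransferase of the arginine pathway. Its level was 6.55, 6.45 and 6.24 on the BY diploid arrays and 11.38, 11.05 and 11.20 on the RM diploid arrays. The groups lay far apart with no array between them, and the difference of 4.80 ± 0.30 (adjusted p = 2.1e-11) is a 27.8-fold higher level. ARG1, the next step of the pathway, stood at 9.26, 9.16 and 9.29 in BY and at 12.59, 12.12 and 12.17 in RM, 8.32-fold higher (3.06 ± 0.30, adjusted p = 4.9e-08). ORT1, the transporter that takes ornithine out of mitochondria, stood at 6.89, 7.04 and 6.88 and at 9.52, 9.26 and 9.23 (2.40 ± 0.24, adjusted p = 3.8e-08). Arginine synthesis thus gave 3 of the 15 largest rises.

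PCL5, a cyclin that marks Gcn4 for breakdown, had a mean of 7.96 ± 0.03 (SD, n = 3) in BY diploids and was at 10.89, 10.71 and 10.72 in RM diploids (2.81 ± 0.24, adjusted p = 3.1e-09). CYC1, which encodes the main cytochrome c of aerobic cells, was at 9.63, 9.54 and 9.48 and at 12.23, 12.20 and 12.29, 6.45-fold higher with a narrow spread in each strain (2.69 ± 0.12, adjusted p = 2.9e-14). The formate dehydrogenase gene FDH1 rose 7.28-fold, and its other probe sets gave 2.41 and 2.24 (log2). FDH1 is read by a probe set that can share sequence with relatives, as is SUF5, a glycine tRNA gene (2.44 ± 0.25), so both are uncertain. SUF5 in BY lay under the 10th percentile of the values (5.73), and with that as a floor its difference was 1.69. ARO5 (2.94 ± 0.25), the autophagy gene ATG41 (2.76 ± 0.28), RTC2, a vacuolar transporter of basic amino acids (2.61 ± 0.44), the alcohol dehydrogenase ADH5 (2.55 ± 0.35) and the glycerol dehydrogenase GCY1 (2.47 ± 0.44) also rose. Further down came the cytosolic catalase CTT1 (2.28 ± 0.40), the cystathionine beta-lyase STR3 (2.26 ± 0.27) and ECM13 (2.25 ± 0.21). CTT1 and STR3 had 1 RM array below the other 2, at 9.03 against 9.85 and 9.86 and at 8.74 against 9.29 and 9.29, in each case RM diploid replicate 1. These still lay above the highest BY arrays, at 7.46 and 6.90.

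**Figure D1:**
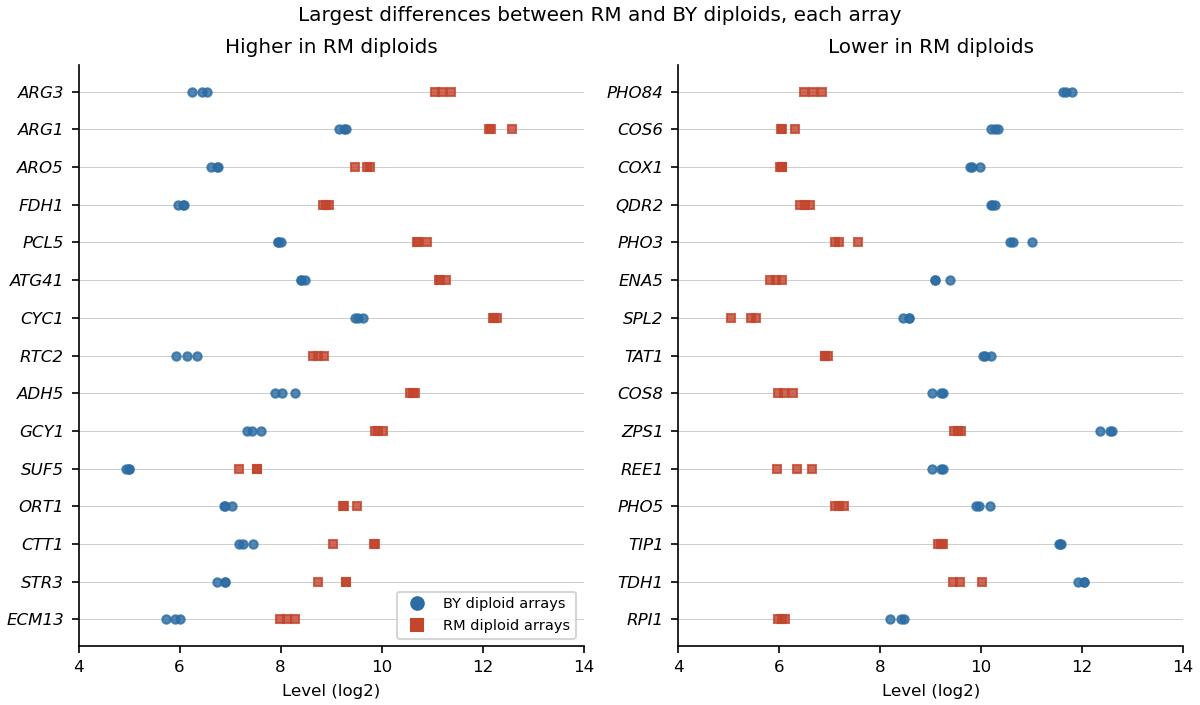
Log2 level of the 15 largest rises (left) and the 15 largest falls (right) among named genes, each point 1 array (circles BY diploids, squares RM diploids). ARG3 rises from 6.24 to 6.55 in BY to 11.05 to 11.38 in RM, PHO84 falls from 11.63 to 11.79 to 6.49 to 6.84, and in no row do the strains overlap, which the choice of genes required.

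Among genes with a standard name, by 1 probe set each, the largest fall was that of PHO84, the high-affinity phosphate transporter. It was at 11.68, 11.63 and 11.79 in BY diploids and at 6.84, 6.67 and 6.49 in RM diploids, a 32.7-fold lower level (-5.03 ± 0.15, adjusted p = 2.2e-17). QDR2, a plasma membrane transporter of the multidrug family, was at 10.20, 10.27 and 10.22 and at 6.42, 6.62 and 6.52 (-3.71 ± 0.14, adjusted p = 1.3e-15). TAT1, a permease for tyrosine, tryptophan and other amino acids, was at 10.03, 10.07 and 10.19 and at 6.90, 6.96 and 6.91 (-3.17 ± 0.19, adjusted p = 5.8e-12). In each of these genes every RM array lay more than 3 log2 units below every BY array. ENA5, a plasma membrane sodium pump from a tandem group of near-identical genes, fell as well (-3.25 ± 0.16). So did acid phosphatases. PHO3 was at 10.58, 10.63 and 11.00 in BY and at 7.10, 7.19 and 7.57 in RM, and its near-identical neighbour PHO5 at 9.96, 9.90 and 10.18 and at 7.29, 7.11 and 7.19. In BY haploids PHO3 averaged 11.00 and PHO5 7.10, and in hybrids they averaged 9.15 and 7.08. How far the 2 probe sets share signal was not tested.

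COS6, of a subtelomeric family of membrane proteins, was at 10.27, 10.33 and 10.19 in BY and at 6.32, 6.05 and 6.04 in RM (-4.13 ± 0.17, adjusted p = 1.6e-14). COS8 fell too (-3.04 ± 0.32), and its other probe sets gave -6.45 and -3.53. Of 8 COS genes with a single-gene probe set, 2 were higher and 3 lower, and without BY replicate 3 or RM replicate 2 the count of higher ones was 1. The remaining falls were of genes with varied roles. TIP1, a cell wall mannoprotein, was at 11.54, 11.57 and 11.58 in BY and at 9.24, 9.21 and 9.15 in RM (-2.36 ± 0.15, adjusted p = 1.8e-11). ZPS1, a surface protein that yeast make when zinc is low, was at 12.56, 12.59 and 12.35 and at 9.54, 9.46 and 9.60 (-2.97 ± 0.53, adjusted p = 2.0e-04). The SE of ZPS1 is larger than its spread in diploids because the fit pools the spread over all groups. REE1, a regulator of the glycolytic enzyme enolase, fell (-2.84 ± 0.18), as did TDH1, an isozyme of glyceraldehyde phosphate dehydrogenase (-2.32 ± 0.41), and the regulator RPI1 (-2.31 ± 0.18).

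COX1, a cytochrome c oxidase subunit encoded in mitochondrial DNA, was lower by its brightest probe set (-3.81 ± 0.19), but the other probe sets of COX1 gave 0.52 and 0.49 and were not called. Its call therefore rests on 1 of 3 probe sets. The array means over 8 genes encoded in mitochondrial DNA were 6.70 to 6.83 in BY diploids and 6.49 to 6.67 in RM diploids. Of these 8 genes 3 were higher and 2 lower, and 1 was higher without BY replicate 1, BY replicate 2, RM replicate 1 or RM replicate 2. The cytochrome b gene COB was higher by 2.07 ± 0.32, with 0.79 from its other probe set. Its BY levels, 4.33 to 4.66, also lay under 5.73, and with that floor the difference was 0.81. Mitochondrial DNA transcripts mostly lack the long tails by which yeast arrays are commonly primed, so the levels of this group are uncertain.

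The same kind of disagreement was seen at VMA1, a subunit of the vacuolar proton pump, whose brighter probe set gave 0.09 ± 0.13 while its other probe set gave -4.43. Of 315 genes with more than 1 single-gene probe set, 214 had none called, 8 had all called higher, 8 had all called lower, 83 had some called in 1 direction and 2 had calls in both directions. A sequence difference under a probe set, or a different part of the transcript, was not tested.

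Transcripts of amino acid synthesis genes were higher in RM diploids in several pathways. All 8 arginine synthesis genes with a single-gene probe set were called higher, with a median of 2.13, beside 9.83% of all genes called higher and a median of 0.00. CPA1, a subunit of the enzyme that makes carbamoyl phosphate for arginine, was at 10.23, 10.18 and 10.19 in BY diploids and at 12.65, 12.34 and 12.28 in RM diploids (2.22 ± 0.26, adjusted p = 7.9e-07). ARG8 was at 8.03, 8.09 and 7.91 and at 10.29, 9.75 and 10.09 (2.03 ± 0.31, adjusted p = 2.6e-05). The strains did not overlap in either gene. ARG4, the last step of the pathway, was at 10.72, 10.80 and 10.67 and at 12.77, 12.69 and 12.73, and it was called. ARG2, its first step, was 2.12-fold higher (1.09 ± 0.19). ARG7 had the smallest difference, 0.94 ± 0.32 (adjusted p = 0.0473), which was not called without any 1 of the 6 arrays (adjusted p 0.0562 to 0.2, the last without RM diploid replicate 1), nor with a floor at the 10th percentile (0.059) or in a fit on all 28 arrays (0.0573). Arginine breakdown, by contrast, had 0 of 4 genes called.

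Histidine synthesis had 5 of 7 genes higher and 0 lower, with a median of 1.03. HIS4, a trifunctional enzyme of the pathway, was at 9.42, 9.63 and 9.86 in BY diploids and at 11.95, 11.45 and 11.60 in RM diploids (2.03 ± 0.34, adjusted p = 1.1e-04). HIS3 rose by 1.57 ± 0.24, HIS5 by 1.46 ± 0.19, HIS7 by 1.03 ± 0.25 and HIS1 by 0.68 ± 0.17. In lysine synthesis 5 of 9 genes were higher and 0 lower, with a median of 0.56. LYS2, the aminoadipate reductase, stood at 8.87, 8.71 and 8.82 and at 10.43, 9.99 and 10.32 (1.45 ± 0.26, adjusted p = 1.9e-04). The homocitrate synthases LYS20 (1.31 ± 0.23) and LYS21 (0.94 ± 0.17), the entry to the pathway, and LYS1 (1.19 ± 0.28), its last step, rose as well. Of 12 genes for aromatic amino acids 6 were higher and 0 lower (median 0.57), with TRP3 at 8.73, 8.73 and 8.79 and at 10.28, 9.91 and 10.04 (1.33 ± 0.21). ARO1, the large enzyme of the shared pathway, rose by 0.96 ± 0.17 and ARO3, at the entry to it, by 0.85 ± 0.21.

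Sulfate assimilation with methionine and cysteine synthesis was mixed. Of 23 genes 11 were higher and 2 lower, with a median of 0.42. STR3 and STR2, which convert cysteine to homocysteine, rose by 2.26 ± 0.27 and 1.91 ± 0.18. The methylenetetrahydrofolate reductase MET13 was at 9.90, 9.93 and 10.13 in BY diploids and at 11.54, 11.57 and 11.55 in RM diploids (1.57 ± 0.19). MET16 rose by 1.29 ± 0.16, MET1 by 1.09 ± 0.22 and the regulator MET28 by 0.99 ± 0.15. SAM1, an S-adenosylmethionine synthetase, went the other way, from 11.70, 11.58 and 11.75 to 10.44, 10.54 and 10.53 (-1.17 ± 0.18, adjusted p = 2.5e-05). CYS4, which opens the reverse route from homocysteine to cysteine, was lower (-0.92 ± 0.28), but 1 array carried much of that. RM diploid replicate 1 was at 9.36 while the other 2 were at 10.78 and 10.98 and BY at 11.23 to 11.38, and without that replicate the difference was -0.42 (adjusted p = 0.257). Without any 1 BY array it was not called either (0.0587 to 0.0845), nor in a fit on the 6 diploid arrays (0.121) or with the replicate block (0.0824).

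**Figure D2:**
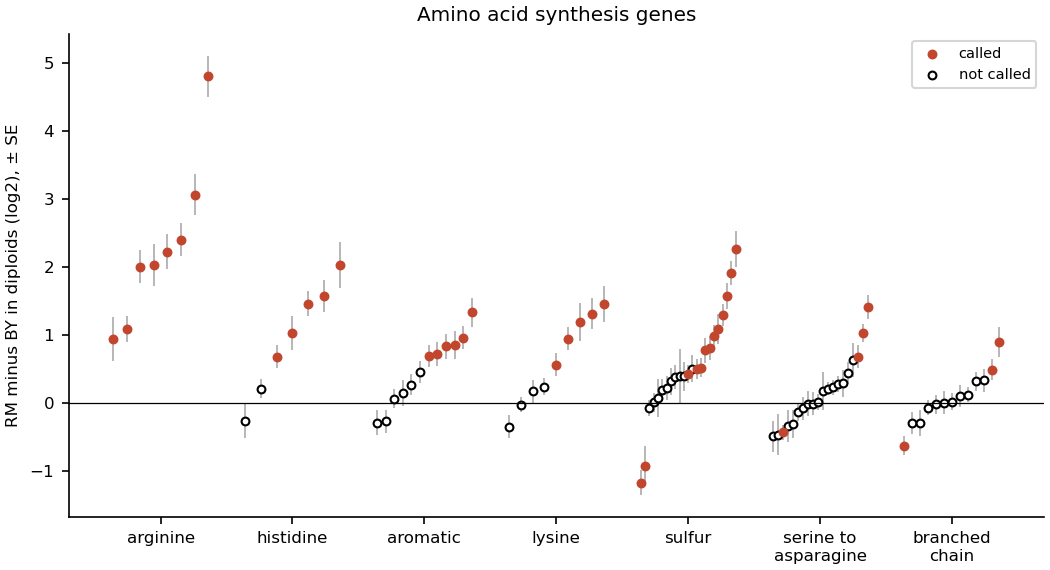
RM minus BY difference in diploids (log2, with standard error) of each amino acid synthesis gene, ordered by size within its pathway, filled where called. All 8 arginine genes lie above 0 and are called, while the 13 branched-chain genes centre on 0.02.

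Other pathways showed few calls. Of 13 genes of branched-chain synthesis 2 were higher and 1 lower (median 0.02). Without BY replicate 2, BY replicate 3, RM replicate 1 or RM replicate 2 the count of higher ones was 1. LEU4, isopropylmalate synthase, rose by 0.90 ± 0.22 and BAT2, a branched-chain aminotransferase, fell by 0.63 ± 0.14. A list of 20 genes for serine, glycine, threonine, glutamate, glutamine, proline and asparagine had 3 higher and 1 lower (median 0.09), and 0 lower without RM replicate 1. It was led by the aspartate kinase HOM3 (1.41 ± 0.18) and the asparagine synthetase ASN1 (1.03 ± 0.13). The 15 genes of nitrogen catabolism and uptake had 0 calls in this limma fit, with a median of -0.12, and 1 higher and 3 lower in a fit on the 6 diploid arrays. GCN4 itself, named here after its values were seen, was at 12.09, 12.21 and 12.10 in BY and at 12.24, 12.48 and 12.43 in RM and was not called (0.25 ± 0.10, adjusted p = 0.0977), though it was after median centring (0.0395), with a floor at the 10th percentile (0.0281) and with array weights (6.4e-04). Gcn4 is controlled mainly in its translation, which arrays of RNA do not read.

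Genes of the phosphate response fell in RM diploids. Of 15 genes for phosphate uptake and storage that Pho4 activates, 0 were higher and 10 lower, with a median of -0.64, beside 8.45% of all genes called lower. The group includes transporters, phosphatases and the vacuolar complex that makes polyphosphate. SPL2, a small protein that limits low-affinity phosphate uptake, was at 8.58, 8.45 and 8.57 in BY diploids and at 5.04, 5.45 and 5.55 in RM diploids (-3.19 ± 0.22, adjusted p = 1.2e-10). All 3 RM values lie under 5.73, the 10th percentile of the values, where the order of levels is uncertain, and with levels raised to that floor the difference was -2.80. PHO5, the repressible acid phosphatase, was 7.05-fold lower (-2.82 ± 0.11, adjusted p = 5.9e-15) and PHM6 2.21-fold lower (-1.14 ± 0.16). Each of the 4 polyphosphate polymerase complex genes fell, VTC1 (-0.92 ± 0.10), VTC2 (-0.98 ± 0.14), VTC3 (-0.64 ± 0.14) and VTC4 (-0.64 ± 0.10). Among the 8 genes of phosphate signalling and low-affinity transport, 1 was called lower, and it was not called without any 1 of the 6 arrays.

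The haploids and hybrids place the difference in PHO84, SPL2 and PHO5 in the BY diploid arrays. PHO84 was at 6.38 to 6.61 in BY haploids, 6.73 to 7.21 in RM haploids and 6.18 to 6.35 in the 6 hybrid arrays, all near the RM diploids and far below the BY diploids at 11.63 to 11.79. SPL2 showed the same order, with 5.18 to 5.45, 5.17 to 5.77 and 4.95 to 5.42 in those groups. PHO5 was at 7.02 to 7.25 in BY haploids, 6.98 to 7.25 in RM haploids and 6.92 to 7.25 in hybrids. So the BY diploid arrays alone were high in these 3 genes among the 5 groups. The strain difference in diploids minus that in haploids, a limma interaction, was -5.46 ± 0.21 for PHO84 (adjusted p = 1.1e-14), -3.25 ± 0.31 for SPL2 (2.0e-07) and -2.82 ± 0.16 for PHO5 (1.2e-11). It was called lower for 7 of the 15 genes, among them PHM6 (-1.24 ± 0.23), VTC1 (-1.12 ± 0.15), VTC3 (-1.86 ± 0.20) and VTC4 (-0.97 ± 0.14). VTC3 and VTC4 had another order, with BY haploids lowest, at 7.38 to 7.55 and 9.62 to 9.85. RM haploids were at 8.46 to 8.91 and 10.04 to 10.16, and hybrids at 8.40 to 8.72 and 10.05 to 10.16. BY diploids were still highest, at 9.25 to 9.35 and 10.66 to 10.83. The strain differences of these 2 genes in haploids were 1.22 and 0.33. The interaction was called for 103 of 5656 genes (1.82%), 43 of them higher (0.760%) and 60 lower (1.06%). Over all probe sets it was called for 181 (1.95%), 106 higher (1.14%) and 75 lower (0.809%). With 3 arrays labelled BY diploid and no label for the medium, strain, ploidy and the phosphate supply of those cultures cannot be told apart.

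**Figure D3:**
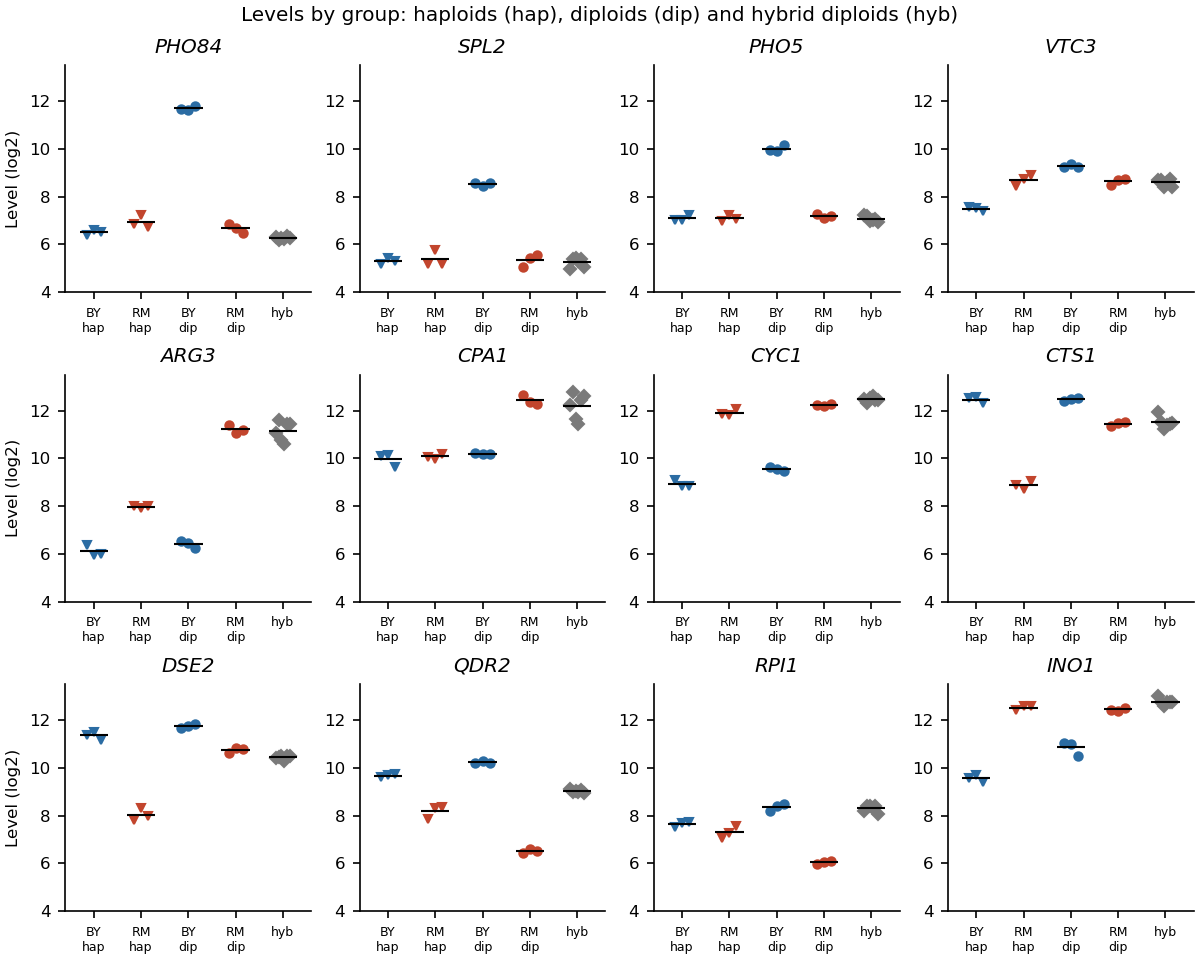
Log2 level of 12 genes on each array of 5 groups, with the group mean as a line (triangles haploids, circles diploids, diamonds hybrid diploids, blue BY, red RM, grey hybrids). PHO84, SPL2 and PHO5 are high in BY diploids alone, ARG3 and CPA1 are high in RM diploids and hybrids, and CYC1 is high in RM haploids, RM diploids and hybrids.

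The arginine genes showed another order across the groups. ARG3 was at 5.96 to 6.36 in BY haploids, a mean of 7.97 ± 0.05 (SD, n = 3) in RM haploids and 10.58 to 11.62 in hybrids, which overlapped the RM diploids at 11.05 to 11.38. CPA1 was at 9.64 to 10.14, 9.99 to 10.19 and 11.42 to 12.76, so that its haploid strains overlapped while its hybrids spanned the RM diploid levels. The interaction was 2.93 ± 0.43 for ARG3 (adjusted p = 1.3e-04), 2.09 ± 0.37 for CPA1 (0.00149), 2.03 ± 0.43 for ARG8 (0.00951) and 1.83 ± 0.33 for ORT1 (0.00191), and it was called higher for 4 of 8 arginine genes. STR3 gave 1.88 ± 0.38 (0.00627). In haploids 4 of the 8 arginine genes were called higher, where 686 of 5656 genes were (12.1%).

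Respiratory genes were higher in RM diploids over nearly the whole list. Of 27 genes for the respiratory chain, 23 were higher and 1 lower, with a median of 0.96. RIP1, the iron-sulfur subunit of the cytochrome bc1 complex, was at 10.09, 10.15 and 10.04 in BY diploids and at 11.53, 11.58 and 11.58 in RM diploids (1.47 ± 0.12, adjusted p = 1.8e-09). COX5A, the cytochrome oxidase subunit of aerobic cells, was at 10.27, 10.36 and 10.39 and at 11.96, 11.79 and 11.77 (2.83-fold higher, adjusted p = 3.5e-09). The lower gene was COX5B, its hypoxic counterpart, at 9.17, 9.23 and 9.27 and at 7.71, 7.87 and 7.75 (-1.45 ± 0.24, adjusted p = 7.1e-05). The isoforms of this subunit thus moved in opposite directions. CYT1, cytochrome c1, rose by 1.28 ± 0.17, COX12, another oxidase subunit, by 1.31 ± 0.11, and SDH2, a subunit of succinate dehydrogenase, by 1.40 ± 0.17.

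ATP synthase had 14 of 17 genes higher and 0 lower (median 0.54), with smaller differences than the respiratory chain's leading genes. ATP20 rose by 1.06 ± 0.14, the inhibitor INH1 by 1.05 ± 0.15 and TIM11 by 0.87 ± 0.11. Of 71 mitochondrial ribosomal protein genes 30 were higher and 0 lower, and 70 of the 71 differences were above 0 (median 0.40). Without 1 array the count was 21 to 28. MRPS9 (0.97 ± 0.26) and MRPL3, at 8.71, 8.66 and 8.65 in BY and 9.43, 9.47 and 9.50 in RM (0.79 ± 0.11), were among them. The TCA cycle had 6 of 11 genes higher and 0 lower, but 2 without BY replicate 1 and 3 without BY replicate 2, BY replicate 3 or RM replicate 1. LSC2, a subunit of succinyl-CoA ligase, rose by 0.85 ± 0.15. Mitochondrial import, with 2 higher and 2 lower of 23, and genes of gluconeogenesis and the glyoxylate cycle, with 2 higher and 0 lower of 14, moved with the settings. Import genes called higher numbered 7 after quantile normalization, 4 after median centring and 1 without BY replicate 1, BY replicate 2, RM replicate 2 or RM replicate 3. Those called lower numbered 1 without any 1 array except BY replicate 3, and 0 without that one. Glyoxylate cycle genes called higher numbered 1 without BY replicate 2 or BY replicate 3 and 0 without RM replicate 1.

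Genes that Hap1 activates were called higher in 7 of 10 cases and lower in 1 (median 1.04). CYC1, CYT1 and CTT1 belong to this list too. CYB2, the lactate dehydrogenase of mitochondria, was at 6.74, 6.54 and 6.47 in BY diploids and at 8.04, 7.98 and 8.11 in RM diploids (1.46 ± 0.30, adjusted p = 8.8e-04). HMG1, the main HMG-CoA reductase of aerobic cells, was at 10.02, 9.98 and 10.06 and at 11.01, 11.10 and 11.06 (1.04 ± 0.16), and YHB1, a flavohemoglobin, rose by 1.04 ± 0.15 by a probe set that can share sequence, with 0.71, 1.13 and 0.06 from its others. NCP1, the reductase that feeds electrons to cytochrome P450 enzymes, fell by 0.75 ± 0.13. HAP1 itself was at 8.88, 8.50 and 8.77 and at 7.61, 7.72 and 8.22. Its arrays did not overlap, but the difference of -0.87 ± 0.40 was not called (adjusted p = 0.152), while it was in a fit on the 6 diploid arrays (0.0102), with the replicate number as a block (0.0119) and with array weights (0.0107). Its other probe sets gave -0.79, not called, and -1.53, called lower. The brightest can share sequence with other genes, so the level of HAP1 is uncertain.

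Sterol synthesis had 12 of 24 genes higher and 2 lower (median 0.32). The scaffold protein ERG28 was at 9.42, 9.44 and 9.42 in BY diploids and at 10.66, 10.96 and 11.03 in RM diploids (1.46 ± 0.12, adjusted p = 2.5e-09). ERG5, a P450 desaturase, rose by 1.05 ± 0.10 and ERG9, squalene synthase, by 0.78 ± 0.14. ERG24 fell by 0.64 ± 0.13. Heme synthesis showed calls in both directions, with 2 higher and 2 lower of 10. HEM2 rose by 0.69 ± 0.11 and HEM3, the next enzyme, fell by 0.92 ± 0.17, and the remaining calls were less stable. The count of higher genes was 1 without RM replicate 2 or RM replicate 3. The count of lower genes was 1 without any 1 array except BY replicate 1, after quantile normalization, after median centring and in the fit on all 28 arrays. Hypoxic genes had 0 higher and 2 lower of 11, COX5B among them, and 1 lower under the same alternatives.

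**Figure D4:**
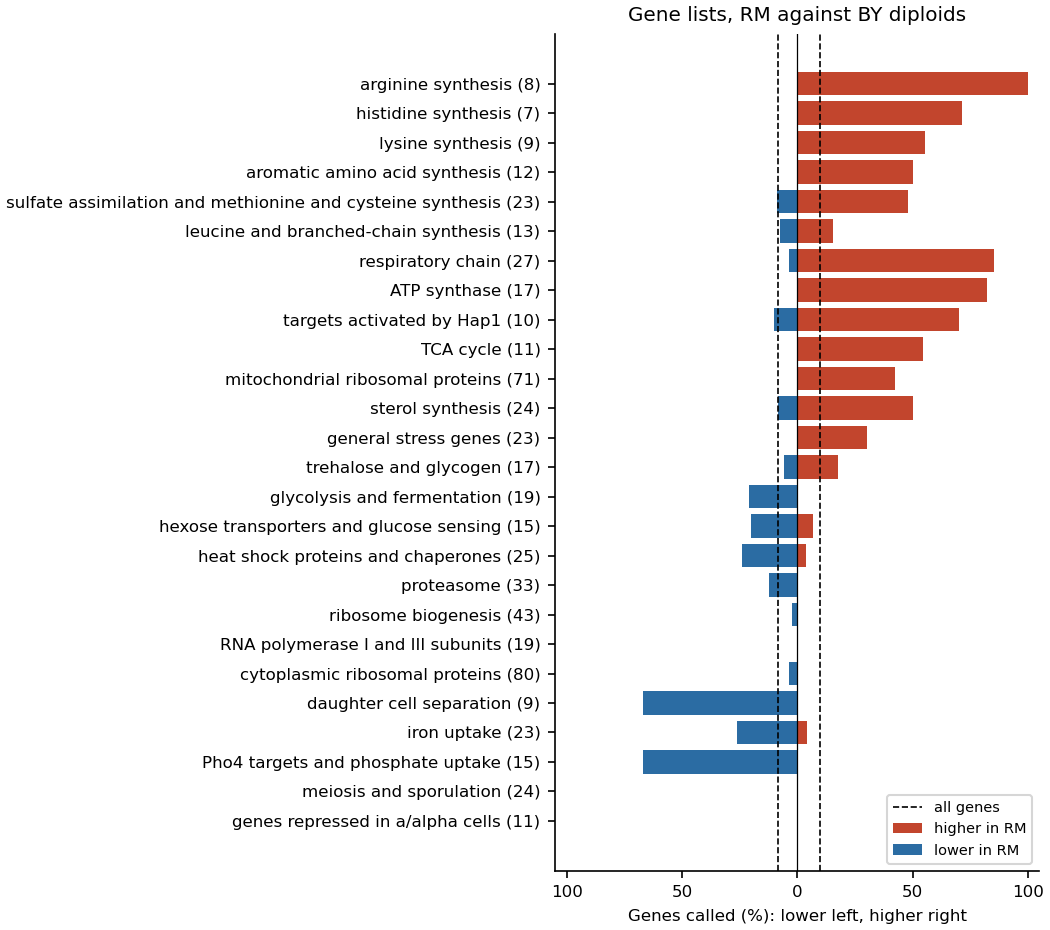
Share of the genes of 26 lists called higher (red, right) or lower (blue, left) in RM diploids, in percent, with the number of genes in parentheses and dashed lines at the share of all 5656 genes, 9.83% higher and 8.45% lower. Arginine synthesis (8 of 8), the respiratory chain (23 of 27) and ATP synthase (14 of 17) reach furthest right, and phosphate genes (10 of 15) and daughter cell separation (6 of 9) furthest left.

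Glucose handling differed at a few genes. HXT1 and HXT3, low-affinity glucose transporters of cells on abundant glucose, were lower and HXT2, a high-affinity transporter, was higher. HXT1 was at 10.92, 11.43 and 11.45 in BY diploids and at 9.62, 9.90 and 9.85 in RM diploids (-1.48 ± 0.39, adjusted p = 0.00971), and HXT3 fell by 0.73 ± 0.19. HXT2 was at 9.34, 9.31 and 9.40 and at 10.41, 10.66 and 10.77 (1.26 ± 0.28, adjusted p = 0.00185). MIG1, a repressor that acts on glucose, fell by 0.54 ± 0.11. With MIG1, the list of 15 hexose transporters and glucose sensing genes had 1 higher and 3 lower. Glycolysis and fermentation had 0 higher and 4 lower of 19 (median -0.11), among them TDH1, the hexokinase HXK2 (-0.79 ± 0.19) and the isomerase PGI1 (-0.48 ± 0.09). Among 14 genes for galactose, maltose and sucrose 3 were higher, MAL31, a maltose permease read by a probe set that can share sequence, by 1.29 ± 0.16 and its regulator MAL33 by 0.65 ± 0.15.

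In the general stress list 7 of 23 genes were called higher and 0 lower (median 0.64), and 22 of the 23 differences were above 0. The count of higher genes was 17 in a fit on the 6 diploid arrays and with the replicate block, and 13 with array weights. RTN2, a protein of the endoplasmic reticulum, was at 7.04, 7.26 and 7.17 in BY diploids and at 9.33, 9.11 and 9.13 in RM diploids (2.03 ± 0.43, adjusted p = 0.00137). DDR2, a stress protein of unknown role, stood at 8.79, 8.83 and 8.90 and at 11.05, 10.55 and 10.41 (1.83 ± 0.47, adjusted p = 0.00799), and MSC1 rose by 1.82 ± 0.41. The large SEs of these genes reflect spread in the other groups of the fit. Storage carbohydrate genes had 3 higher and 1 lower of 17, with glycogen phosphorylase GPH1 higher by 1.53 ± 0.38 and phosphoglucomutase PGM1 lower (-0.58 ± 0.14), and 1 higher without BY replicate 3. The count higher was 7 after quantile normalization, 5 after median centring and 11 in the fit on 6 arrays and with the block. Heat shock proteins and chaperones were different, with 1 of 25 higher and 6 lower (median -0.31), and 12 lower in the fit on 6 arrays and with the block. SIS1, a co-chaperone of Hsp70, was at 10.66, 10.41 and 10.91 and at 9.33, 9.48 and 9.16 (-1.34 ± 0.16, adjusted p = 1.2e-06). The Hsp90 co-chaperone STI1 (-1.23 ± 0.25) and the Hsp70 gene SSA2 (2-fold lower) fell, while HSP78, a mitochondrial chaperone, rose by 1.01 ± 0.21.

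Oxidant defence had 1 higher and 4 lower of 14. SOD2, the mitochondrial superoxide dismutase, rose by 0.88 ± 0.19 while SOD1, the cytosolic enzyme, was at 12.89, 12.81 and 12.95 in BY and at 12.13, 11.74 and 12.04 in RM (-0.91 ± 0.12, adjusted p = 2.0e-06). The peroxidase GPX2 (-1.12 ± 0.21), the reductase OYE2 (-1.08 ± 0.16) and thioredoxin TRX2 (-0.66 ± 0.13) fell. Of 14 genes of multidrug resistance, the pump PDR5 fell by 0.67 ± 0.15, with -0.78 to 0.16 from its 6 other probe sets, and ATR1 rose by 0.95 ± 0.18.

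Genes for making ribosomes had medians below 0, and their counts of calls depended on the fit. Of 43 ribosome biogenesis genes 0 were higher and 1 lower, with a median of -0.44, and 1 of the 43 differences was above 0. The called gene, the RNA helicase HAS1, was at 8.74, 8.78 and 8.84 in BY diploids and at 7.75, 7.71 and 7.88 in RM diploids (-1.01 ± 0.26, adjusted p = 0.00709). In a fit on the 6 diploid arrays 20 of the 43 were lower, as with the replicate number as a block, and with array weights 14. The 19 subunits of RNA polymerases I and III had 0 calls in the limma fit on 24 arrays and a median of -0.31, but 8 lower in the fit on 6 arrays, 7 with the block and 7 with array weights. Cytoplasmic ribosomal proteins had 0 higher and 3 lower of 80, with a median of -0.07 that was 0.01 after quantile normalization. RPL16A, 1 of a pair of copies that encode the same subunit, was at 12.89, 12.93 and 13.02 and at 11.27, 11.32 and 11.34 (-1.64 ± 0.21, adjusted p = 2.5e-06), and RPL24B fell by 0.72 ± 0.17. Such copies can share probes. Apart from these groups, the proteasome had 0 higher and 4 lower of 33, beside 8.45% of all genes called lower. Among the 4 were RPT6 (-1.20 ± 0.16), RPN6 (-0.97 ± 0.15) and RPN13 (-0.68 ± 0.13).

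Daughter cell separation genes were lower in RM diploids. Of 9 genes, which encode enzymes that digest the septum and proteins of the daughter cell program, 0 were higher and 6 lower (median -0.61). The chitinase CTS1 was at 12.41, 12.47 and 12.52 in BY diploids and at 11.35, 11.47 and 11.52 in RM diploids (-1.02 ± 0.14, adjusted p = 1.1e-05). DSE2 was at 11.67, 11.75 and 11.82 and at 10.63, 10.85 and 10.78 (-0.99 ± 0.13, adjusted p = 2.0e-06), and SCW11 fell (-0.96 ± 0.16). These 3 calls were lost in a fit on all 28 arrays (adjusted p 0.141, 0.165 and 0.107), in which the segregants, each perhaps of another genotype, enter the spread. EGT2 fell (-0.72 ± 0.12), as did AMN1 itself (-0.61 ± 0.11), from 9.02 to 9.18 in BY to 8.45 to 8.53 in RM. In the fit on all 28 arrays 2 of the 9 genes were called lower.

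The separation genes differed more between the haploid strains than between the diploid strains. CTS1 was at 12.30 to 12.55 in BY haploids and 8.71 to 9.05 in RM haploids, and DSE2 at 11.17 to 11.52 and 7.81 to 8.32. All 9 genes were called lower in RM haploids, with a median of -1.48, where 296 of 5656 genes were lower (5.23%). The interaction was 2.56 ± 0.20 for CTS1 (adjusted p = 8.3e-09), 2.33 ± 0.18 for DSE2 (3.2e-09) and 1.70 ± 0.23 for SCW11 (4.9e-05), and 5 of the 9 genes were called higher in it. In the fit on all 28 arrays, DSE2 (0.0777) and SCW11 (0.163) were not called. The hybrids, at 11.23 to 11.94 for CTS1 and 10.30 to 10.51 for DSE2, lay near the RM diploids.

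Other cell cycle groups had few calls. Genes that peak at the start of the cycle had 0 higher and 3 lower of 15, and 1 lower without RM replicate 1, with the cyclin PCL2 lower (-0.71 ± 0.18). Of 11 genes that peak in mitosis CLB1, a mitotic cyclin (-0.78 ± 0.15), and IQG1, of the contractile ring (-0.59 ± 0.15), fell. HTB2, a histone H2B gene, fell by 0.57 ± 0.15, the only call among 4 histone genes with a single-gene probe set.

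Lipid synthesis had 2 higher and 3 lower of 19, beside 9.83% and 8.45% of all genes. The count of higher ones was 1 without BY replicate 1, BY replicate 2, RM replicate 1 or RM replicate 2. Inositol genes were the furthest apart. INO1, inositol phosphate synthase, was at 11.06, 11.01 and 10.51 in BY diploids and at 12.44, 12.39 and 12.51 in RM diploids (1.59 ± 0.18, adjusted p = 4.0e-07). ITR1, the inositol transporter, was at 12.77, 12.80 and 12.71 and at 10.87, 11.33 and 11.22 (-1.62 ± 0.13, adjusted p = 1.1e-09). The transcripts of INO1 and ITR1 thus differed in opposite directions. CHO2, which methylates phosphatidylethanolamine, fell by 0.75 ± 0.12. In haploids the INO1 difference was 2.96, and the interaction was -1.37 ± 0.25 (adjusted p = 0.00235).

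Genes for iron, copper and zinc were called in both directions, beside 9.83% of all genes called higher and 8.45% lower. Iron uptake had 1 higher and 6 lower of 23, with 2 lower without BY replicate 2 and 3 without BY replicate 3, RM replicate 1 or RM replicate 3. FET4, a low-affinity transporter of iron and other metals, was 3.27-fold lower in RM diploids (-1.71 ± 0.12, adjusted p = 2.4e-10), and the ferroxidase FET3 fell by 1.11 ± 0.22. HMX1, a heme oxygenase, rose by 0.57 ± 0.12. Among copper genes CRS5, a metallothionein gene that the reference annotation holds as a pseudogene, was at 7.10, 7.11 and 7.08 and at 9.56, 9.19 and 8.97 (2.14 ± 0.24, adjusted p = 2.7e-07), while the copper transporter CTR1 fell by 0.84 ± 0.17 and the regulator CUP2 rose by 0.56 ± 0.14. In the zinc list of 11, ZPS1 fell, and the membrane protein IZH1 (0.54 ± 0.14) and the lipid phosphatase DPP1 (0.51 ± 0.13) rose.

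Cell wall genes had 2 higher and 4 lower of 22, beside 9.83% and 8.45% of all genes. PIR3, a cross-linked wall protein, was at 7.83, 7.61 and 7.46 in BY diploids and at 10.02, 9.59 and 9.48 in RM diploids (2.06 ± 0.42, adjusted p = 9.7e-04). CIS3, of the same family, went the other way, at 12.81, 12.78 and 12.90 and at 11.77, 11.57 and 11.66 (-1.16 ± 0.09, adjusted p = 1.4e-09), and PIR1 fell by 0.57 ± 0.13. CWP1, a mannoprotein, rose by 0.87 ± 0.15. HPF1, a glucan-associated protein, was not called (0.30 ± 0.13, adjusted p = 0.145), but was in a fit on the 6 diploid arrays (0.0393) and with array weights (0.0254). The list of flocculins and FLO8, a flocculation regulator, had 0 calls among its 5 genes with a single-gene probe set. FLO8 gave -0.07 ± 0.22.

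Transporters and enzymes of vitamin and nucleotide supply were among the genes called. VHT1, the biotin transporter, was at 7.51, 7.55 and 7.36 in BY diploids and at 8.69, 8.97 and 8.89 in RM diploids (1.38 ± 0.25, adjusted p = 2.2e-04). THI7, the thiamine transporter, rose by 1.00 ± 0.20 and BNA4, of NAD synthesis, by 0.88 ± 0.18. URA10, a minor isozyme of the pyrimidine pathway, was at 7.30, 7.29 and 7.20 and at 9.52, 9.26 and 9.21 (2.07 ± 0.43, adjusted p = 0.00123), the only call among 10 pyrimidine genes. IMD4, of guanine nucleotide synthesis, was lower (-1.71 ± 0.42), with RM diploid replicate 1 at 8.88 below the other 2 at 10.17 and 10.47. It was not called without that replicate (adjusted p = 0.0606), and its other probe set gave -0.71 and was not called.

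The remaining lists had few or unstable calls. Peroxisomal genes had 5 higher and 0 lower of 24, but 2 higher without RM replicate 1 and 3 without BY replicate 2, BY replicate 3 or RM replicate 3. Vitamin genes had 5 higher and 1 lower of 14, with 2 higher without BY replicate 3 and 3 without BY replicate 1 or BY replicate 2. Methionine uptake and recycling had 2 higher of 6, SAM4 and MHT1, and 1 without any 1 array except RM replicate 1. Aryl alcohol dehydrogenase genes, a subtelomeric family, had 2 higher and 1 lower of 4, and 1 higher without any 1 array except RM replicate 2. The thiamine list of 11 and the list of 9 genes of stress in the endoplasmic reticulum each had 1 higher and 1 lower, and the latter had 0 lower without BY replicate 2, BY replicate 3 or RM replicate 1. The higher gene of the latter was HAC1 (0.73 ± 0.15), by a probe set that can share sequence. Other probe sets of HAC1 gave -0.85, called lower, 0.81, called higher, and 0.29 and -0.04, not called, so its direction is uncertain. The vacuolar proton pump had 0 higher and 1 lower of 15, and 2 lower without BY replicate 1. The 10 PAU genes and the 2 aquaporins had 0 calls, and the 7 a-specific genes had 1 higher and 1 lower. Of these calls the higher was lost without BY replicate 1, BY replicate 3 or RM replicate 2, and the lower without any 1 array except RM replicate 2.

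Some genes are well known to carry different alleles in BY and RM. Of 10 such genes, 0 were higher and 4 lower, AMN1 and PHO84 among them. IRA2, a brake on Ras signalling, gave -0.71 ± 0.17 by its brightest probe set, and its 10 other probe sets gave -0.44 to 0.35. MKT1 gave -0.41 ± 0.14 (adjusted p = 0.0436) and was not called under 5 of the 6 removals of 1 array (adjusted p 0.0537 to 0.227), nor after quantile normalization (0.065) or median centring (0.0754). The mitochondrial carrier SAL1 was not called (0.38 ± 0.15, adjusted p = 0.0954) but was in 5 of the alternative fits (7.4e-05 to 0.0315), and GPA1, the G protein of mating, gave 0.12 ± 0.12. LEU2 and URA3, common marker genes, gave -0.30 ± 0.16 and -0.27 ± 0.17 in diploids. In haploids the differences were -2.82 and -3.10, and the interactions were 2.53 ± 0.23 (adjusted p = 8.0e-08) and 2.83 ± 0.24 (2.5e-08). By the interaction, the strains differed less in these markers in diploids than in haploids. Neither was called in diploids by limma (adjusted p = 0.252 for LEU2 and 0.343 for URA3), though their arrays did not overlap between the diploid strains. The haploid strains also differ in mating type genes.

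The strain difference was shared between diploids and haploids at many genes. The 2 comparisons use different arrays, but the same probe sets and 1 shared estimate of the spread. Of the 556 genes higher in RM diploids, 329 were also called higher in RM haploids, and of the 478 lower, 196 were also lower. In haploids 982 of 5656 genes were called (17.4%), 686 higher (12.1%) and 296 lower (5.23%). Of all probe sets 1669 were called there (18.0%), 917 higher (9.89%) and 752 lower (8.11%). CYC1, COS6, TIP1 and RPL16A are examples of agreement, with haploid differences of 2.99, -3.51, -2.22 and -1.57 beside 2.69, -4.13, -2.36 and -1.64 in diploids. QCR8, of the bc1 complex, rose by 0.79 ± 0.11 in diploids and 1.59 in haploids, with an interaction of -0.81 ± 0.15 (adjusted p = 0.00284). The other probe set of QCR8 gave 0.24 in diploids and was not called. Some genes differed more in diploids. RPI1 was at 8.19, 8.41 and 8.47 in BY diploids, 5.98, 6.05 and 6.12 in RM diploids, 7.54 to 7.75 in BY haploids and 7.08 to 7.56 in RM haploids (interaction -1.95 ± 0.25, adjusted p = 2.2e-05), and hybrids at 8.06 to 8.42 overlapped the BY diploids. QDR2 was at 9.60 to 9.73 in BY haploids, 7.86 to 8.36 in RM haploids and 8.93 to 9.10 in hybrids, between the diploid strains (interaction -2.22 ± 0.20, adjusted p = 4.7e-08, and 0.356 in the fit on all 28 arrays). In haploids QDR2 was called lower too (-1.49 ± 0.14), as was COS8 (-0.98 ± 0.32), whose interaction was -2.06 ± 0.45 (0.0134, and 0.262 in that fit).

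Calls in opposite directions were few. Only FUS1 was higher in RM diploids and lower in RM haploids, and 9 genes were lower in diploids and higher in haploids. FUS1, a membrane protein of mating cells, was at 5.72 to 5.82 in BY diploids and 6.27 to 6.55 in RM diploids, low beside 7.72 to 7.82 in BY haploids and 6.69 to 6.85 in RM haploids (interaction 1.59 ± 0.19, adjusted p = 9.5e-06). Of the 9, PHO84, VTC3 and VTC4 belong to the phosphate group. The haploid call of PHO84 was close to the threshold (0.42 ± 0.15, adjusted p = 0.0476 by limma). ISU2, a scaffold for iron-sulfur clusters, moved by -0.62 ± 0.16 in diploids and 0.97 in haploids (interaction -1.58 ± 0.23, adjusted p = 1.3e-04), but its diploid call was lost without RM diploid replicate 2 (adjusted p = 0.0513). MIG1 moved by -0.54 and 0.34 (interaction -0.88 ± 0.15, adjusted p = 0.00127) and CMI8 by -0.54 and 0.55 (-1.09 ± 0.19, adjusted p = 0.00158).

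**Figure D5:**
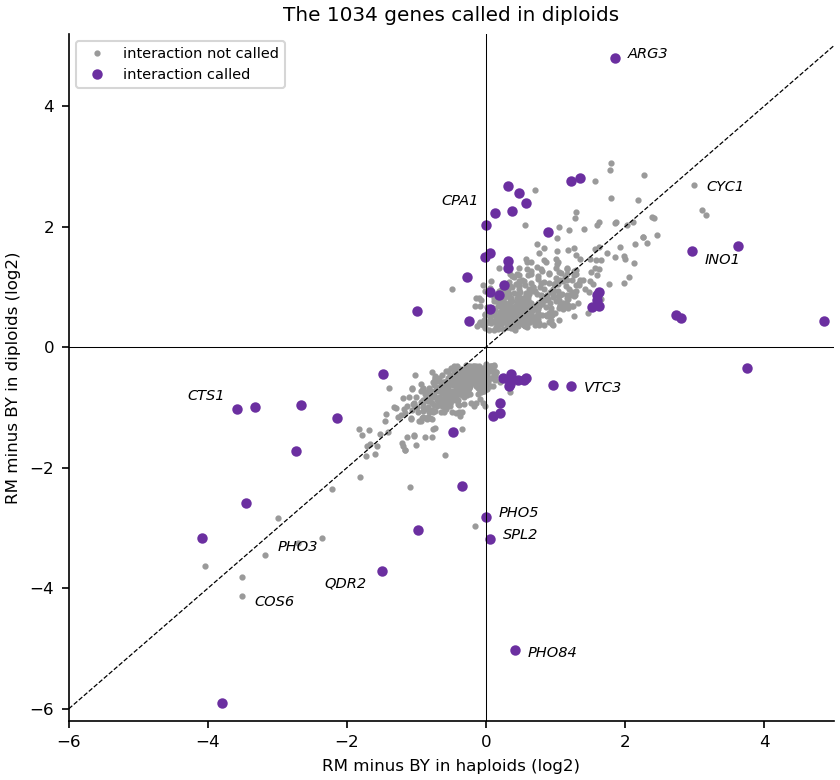
RM minus BY difference in haploids (horizontal, log2) and in diploids (vertical, log2) of the 1034 genes called in diploids, each point a gene, purple where the strain by ploidy interaction was called, with a dashed line of equal difference. PHO84, SPL2 and PHO5 lie far below the line near 0 in haploids, ARG3 and CPA1 above it, and CTS1 lies at -3.58 in haploids and -1.02 in diploids.

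Position along the chromosomes was described without a test. Of 193 genes with a probe set among the outermost 10 annotated genes of each chromosome arm, 31 were higher (16.1%) and 20 lower (10.4%), beside 9.59% and 8.30% of 5444 other nuclear genes. Past 2-fold the outermost genes had 9 higher (4.66%) and 8 lower (4.15%), and the others 2.52% and 1.36%. COS6 and COS8 are of this kind. Runs of neighbouring genes that differed by more than 2-fold in the same direction were short, 12 runs of 2 genes. They include PHO3 with PHO5, CRS5 with HMS1 (1.03 ± 0.11), HOM3 with the phosphate and copper carrier PIC2 (1.29 ± 0.28), HIS3 with MRM1 (1.01 ± 0.12), and PRM8 (-1.49 ± 0.24) with MST27 (-1.06 ± 0.25). CPA1 paired with YOR302W (2.68 ± 0.30), the upstream reading frame on the CPA1 transcript, so that pair is a single transcript read by 2 probe sets. PRM10, a membrane protein gene, was higher by 2.03 ± 0.18 and also had a neighbour that rose.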

How the data were processed

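Per the labels' protocols, total RNA was taken from log-phase cells. The authors deposited 1 table of levels per probe set, taken as log2 from the values, and the software and scaling behind it are not given in the sources used here. Array medians were close, so values were used as deposited. Of 9335 probe sets, 60 controls and 1 at 0 on every array were left out. The platform annotation gave 6504 probe sets 1 gene, and all 6504 were matched to the reference annotation. Probe sets ending in f, s, i or r_at can share sequence.

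Means of 6 groups were fitted on 24 arrays with limma 3.58.1 in R 4.3.3 (lmFit, eBayes), two-sided. P-values were adjusted by Benjamini-Hochberg across the 9274 probe sets left. The 4 segregant arrays stayed out. Columns without a sample numbered 0. The fit was tested on simulated data. The members and gene lists were chosen with earlier results of these data known. Named were the 15 largest called rises and falls without overlap, up to 4 called members per list by size, fixed genes and genes with opposite calls in haploids, and some further list members chosen after their values were seen. The labels do not say that replicate numbers pair the arrays, so the main fit held no pairing. Figures used Python 3.11.15 and matplotlib 3.10.9. Alternatives are listed at the end. Promoter motifs were not analysed here.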

Additional observations from a re-analysis of the deposited data

Results flagged for a closer look

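The following genes had a strain difference in diploids that differed from that in haploids by limma's interaction test, at an adjusted p under 0.05 over all probe sets. The list is a selection from the 103 genes so called. The values are the diploid difference minus the haploid difference on the log2 scale. The haploid strains also differ in mating type genes and in LEU2 and URA3, and the part of these was not tested.

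In the phosphate group the values were -5.46 for PHO84, -3.25 for SPL2, -2.82 for PHO5, -1.86 for VTC3, -1.24 for PHM6, -1.12 for VTC1 and -0.97 for VTC4. In amino acid synthesis they were 2.93 for ARG3, 2.09 for CPA1, 2.03 for ARG8, 1.83 for ORT1, 1.88 for STR3 and 2.53 for LEU2, and for URA3 in pyrimidine synthesis 2.83. Daughter cell separation gave 2.56 for CTS1, 2.33 for DSE2 and 1.70 for SCW11. Other genes were QDR2 at -2.22, COS8 at -2.06, RPI1 at -1.95, ISU2 at -1.58 and INO1 at -1.37. CMI8 gave -1.09, MIG1 -0.88, QCR8 -0.81 by its brighter probe set and FUS1 1.59. Further genes of the text with a called interaction include ADH5 (2.08, adjusted p = 0.0232), ATG41 (1.54, 0.0447) and PCL5 (1.46, 0.0187). STR2 (1.02, 0.035) and ASN1 (0.77, 0.0215) are others. The interactions of these further genes were not followed under the alternatives below.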

How the results depend on the processing

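The number of probe sets called (1598, with 686 higher and 912 lower) rose in a fit on the 6 diploid arrays to 2478, with 1153 higher, and with array weights to 3744, with 1805 higher and 1939 lower. With 1 probe set per gene, which tests fewer probe sets, 523 were lower, and 86 of the 351 lower by more than 2-fold were left. Without 1 array the counts were 1164 to 1379 in all, 504 to 602 higher, 645 to 777 lower, 178 to 198 higher and 333 to 381 lower past 2-fold, and 121 to 164 for the interaction. The interaction (181) became 285 after quantile normalization, 738 with array weights, 117 with 1 probe set per gene and 296 without mixture array 5, an alternative chosen after seeing the data. That alternative left the other counts within 1.5 times. Variance trend, floor, the dim probe set filter and the fit on all 28 arrays did so for all of these counts.

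Same-numbered arrays of the strains deviated with correlations of 0.195, 0.288 and -0.135, and arrays of different number with -0.389 to 0.334. With 3 arrays per strain these values cannot decide whether the numbers pair the arrays. With the replicate block 2314 probe sets were called, 1052 of them higher. Among the genes named it ended the call of CYS4 (adjusted p = 0.0824) and called HAP1 and SAL1, and it changed no other call.

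Counts of some further lists also moved by over 1.5 times with the fit on 6 arrays, such as cell wall genes called higher, from 2 to 7.

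Of 166 gene differences, 15 changed call or sign under some alternative, as did 4 of 26 interactions, and those that changed call are given beside their values. LEU2 was called in the fit on the 6 diploid arrays (0.0266) and with array weights (0.0263). The sign turned for VMA1 (-0.01 to 0.19 without 1 array) and FLO8 (-0.16 to 0.03 without 1 array, 0.01 with array weights), neither called. SPL2's interaction was -2.82 with the floor. The causes were not tested. Promoter motifs were planned and not run, since no promoter sequence was at hand. The platform and 3 arrays per strain limit small differences.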
